A study of Mus musculus with 2 samples.

Results

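Irf8 and 9 other transcription factors known from dendritic cell development (Irf4, Spi1, Id2, Bcl6, Tcf4, Bcl11a, Batf3, Ikzf1 and Prdm1) were examined in sorted intestinal immune cells. Each factor was followed through all probe sets whose only gene in the platform annotation, after symbols were updated, was one of these 10 genes. This gave 10 of the 12393 genes on the array, through 21 of its 22690 probe sets. One sample was dendritic cells sorted as CD11c+MHCII+. The other was eosinophils sorted as CD11b+, CD11c intermediate, MHCII- and SiglecF+. Both came from the lamina propria of the small intestine of C57BL/6 mice aged 8 weeks, both labelled unstimulated, and each was hybridised to 1 array. How many animals went into a sort is not stated in the labels.

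The comparison asks how the expression profiles of these populations differ. The values are linear signal intensities in arbitrary units. A floor of 134.7 units, the median signal with both arrays pooled, was taken as the lowest level used, so a fold with 1 side below it is written "at least". Signals between the floor and 192 units, the 95th percentile of genes of germ cells, eye, hair and similar tissues, may be background. Because each population has a single array, nothing measures the error between animals, no test was made, and a difference describes these arrays. Probe sets that share a gene gave the one spread that could be measured, an SD of 0.726 on the log2 scale (1.65-fold; 1766 genes), which is not an error between animals. Checked against markers, 10 of 14 measured dendritic cell markers passed 4-fold toward the dendritic cell array, and 7 of 8 measured eosinophil markers toward the eosinophil array. The MHC class II genes and Siglecf among them were used in the gates, and Itgax, which encodes CD11c, was 1.24-fold apart. The eosinophil granule genes Prg2 and Prg3 were below the floor on both arrays. In bulk samples such as these, fewer cells of a type and less RNA per cell cannot be told apart.

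Dendritic cells arise from bone marrow progenitors under a small set of transcription factors. PU.1, encoded by Spi1, is an ETS family factor needed throughout the myeloid lineage, and it binds DNA together with Irf4 or Irf8 at composite sites. Irf8, with Batf3, Id2 and Bcl6, supports the conventional type 1 dendritic cell (cDC1), which cross-presents antigen. Irf4 supports the type 2 cell (cDC2) and its migration, while Tcf4, an E protein held in check by Id2, together with Bcl11a and Ikzf1 supports the plasmacytoid dendritic cell (pDC). Prdm1 is a repressor best known from plasma cells that also acts in myeloid cells. Eosinophils come from a granulocyte branch in which GATA and C/EBP factors act.

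The 10 factors differed among themselves. Irf8 and Irf4 were far brighter in dendritic cells and lay below the floor in eosinophils. Bcl6, Tcf4 and Batf3 were brighter in dendritic cells by smaller amounts, Prdm1 was brighter in eosinophils, and Spi1, Id2, Bcl11a and Ikzf1 were less than 2-fold apart. In the gene-level count, where the probe set with the highest mean log2 signal stands for a gene, 2 of the 10 members passed 4-fold toward dendritic cells and 0 toward eosinophils, against 5.35% of the 7994 measured genes in each direction. At 2-fold, 5 members were brighter in dendritic cells, against 15.5% of measured genes, and 1 in eosinophils, against 19.0%. The median log2 difference, eosinophils minus dendritic cells, was -0.75 over the members and 0.156 over all measured genes. Since the members were chosen with earlier results of these data known, these counts describe them and support nothing further.

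**Figure D1:**
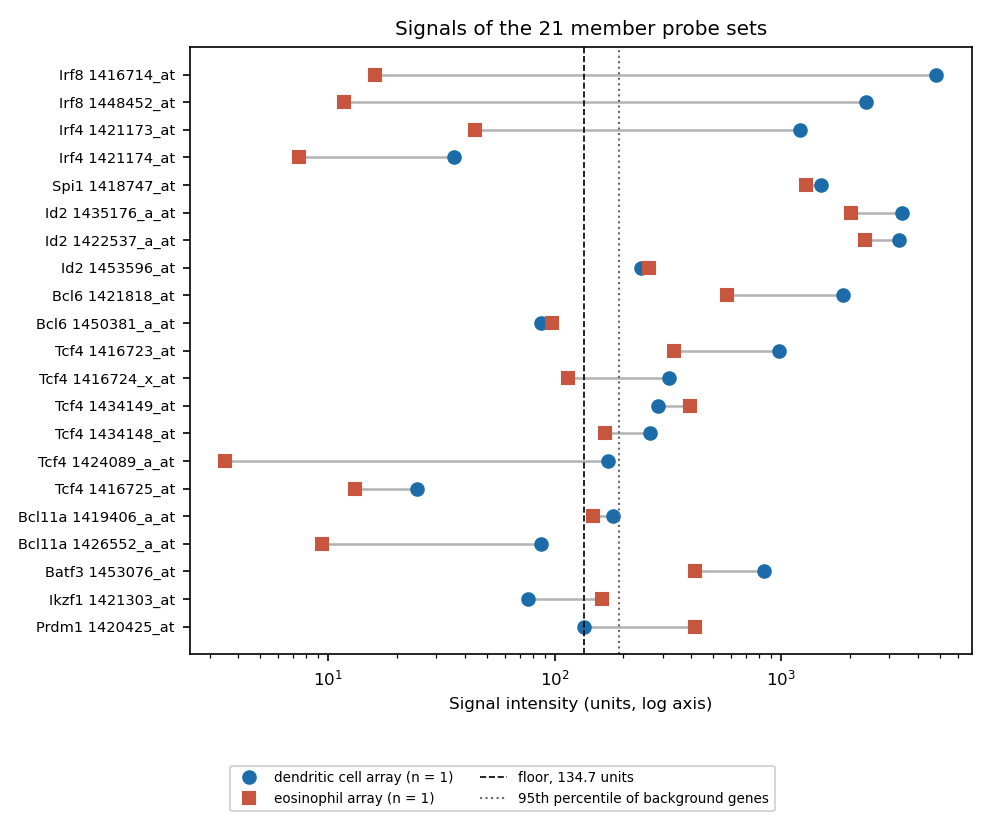
Signal of each of the 21 member probe sets (rows) on the dendritic cell array (circles) and the eosinophil array (squares), in units on a log axis, with the floor of 134.7 units (dashed) and the 95th percentile of background genes (dotted). Both Irf8 probe sets and 1 of Irf4 span from below the floor in eosinophils to 1213 units or more in dendritic cells, while the Spi1 and Id2 pairs of points lie close together.

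Irf8, an interferon regulatory factor, was bright in dendritic cells and below the floor in eosinophils with both of its probe sets. Probe set 1416714_at gave 4835 units in dendritic cells and 16.1 in eosinophils, at least 35.9-fold apart. Probe set 1448452_at gave 2365 units and 11.7 units, at least 17.6-fold apart. Both eosinophil signals were below even the 25th percentile of all signals, 41.4 units, so on the eosinophil array Irf8 was not distinguishable from background. The gene-level fold is past 10-fold, as were 124 measured genes (1.55%) in that direction. Both probe sets were designed from the same sequence record in the annotation and are not independent measurements.

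Irf4, the close relative of Irf8, was carried by a single probe set. Probe set 1421173_at gave 1213 units in dendritic cells and 44.4 in eosinophils, at least 9.0-fold apart. The other, 1421174_at, was below the floor on both arrays with 35.7 units and 7.40 units and gives no fold. The gap was again toward dendritic cells, but only 1 of the 2 Irf4 probe sets could show it, and both come from the same sequence record.

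Markers of other cells known to use Irf4 or Irf8 were set beside these gaps. Summed signals count every marker of a list on the array, also those below the floor, and so include background. Of 12 B cell markers on the array 5 were above the floor and none was at least 4-fold apart. The summed signal of all 12 was 1362 units in dendritic cells and 1845 in eosinophils. The one furthest apart was Ebf1, an early B cell factor, with 440 units in eosinophils and 97.1 in dendritic cells, at least 3.27-fold. The defining B cell genes Cd79a, Cd79b, Ms4a1 and Pax5 were all below the floor on both arrays. Of 9 plasma cell markers, which include Irf4 and Prdm1, 7 were above the floor, with sums of 3845 units in dendritic cells and 3865 in eosinophils. Irf4 itself gave 1213 units of the former, and Xbp1, also on the list of eosinophil factors, gave 2787 units of the latter. The near-equal sums therefore do not show how much plasma cell RNA either sample held. The immunoglobulin gene Igha (643 units against 95.3 units) and the plasma cell proteoglycan Sdc1 (525 units against 74.2 units) leaned to dendritic cells by at least 4.77-fold and at least 3.89-fold, whereas the joining chain Jchain and the receptor Tnfrsf17 lay below the floor on both arrays. The second Sdc1 probe set stood at -0.07 (log2), and probe sets of Igha ranged from -2.26 to -0.92. The part of plasma cell RNA in the Irf4 signal was not tested. Of 12 macrophage and monocyte markers 8 were above the floor, with sums of 7356 units in dendritic cells and 2688 in eosinophils. At 2-fold 3 leaned to dendritic cells and 0 to eosinophils, against 15.5% and 19.0% of measured genes. The lipopolysaccharide co-receptor Cd14 led the list at 2641 units against 100 units, at least 19.6-fold. Cd68 (2573 units against 672 units) and C1qb (363 units against 37.5 units) followed, 3.83-fold and at least 2.7-fold apart. Probe sets of C1qb ranged from -1.55 to -0.28 (log2). Mertk leaned to eosinophils (258 units against 59.1 units, at least 1.92-fold). Csf1r gave 1121 units in dendritic cells and 763 in eosinophils, while Cx3cr1, Fcgr1 and Mrc1 were below the floor on both arrays. The part of macrophage RNA in the signals of the members was not tested. Of 14 markers of T, NK and innate lymphoid cells 7 were above the floor, none at least 4-fold apart, with sums of 1829 units in dendritic cells and 1670 in eosinophils.

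The DNA before the start of these genes is shown for the 2 members at least 4-fold apart and for Bcl6, whose window held the most motif matches. The sequences are RefSeq promoter windows of GRCm38.p6, 250 bases each on the gene's strand, 5′ to 3′ and ending at the base before the annotated start. Of the 10 members 8 had an entry, with 11 windows in all. Capitals mark matches on either strand to any of 6 motifs: GGAANNGAA (ETS-IRF composite), GAAANNGAA (IRF), TTCNNNGAA (the GAS type bound by STAT factors), GAGGAA (PU.1 type), CAGGTG (E-box) and TGACTCA (AP-1).
Irf8, chr8:120736108-120736357, plus strand: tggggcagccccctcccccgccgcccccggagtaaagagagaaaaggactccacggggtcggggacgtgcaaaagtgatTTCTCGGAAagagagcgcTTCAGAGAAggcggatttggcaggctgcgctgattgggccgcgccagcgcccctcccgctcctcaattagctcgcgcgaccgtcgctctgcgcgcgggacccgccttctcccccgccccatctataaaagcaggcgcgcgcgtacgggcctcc
Irf4, chr13:30748983-30749232, plus strand: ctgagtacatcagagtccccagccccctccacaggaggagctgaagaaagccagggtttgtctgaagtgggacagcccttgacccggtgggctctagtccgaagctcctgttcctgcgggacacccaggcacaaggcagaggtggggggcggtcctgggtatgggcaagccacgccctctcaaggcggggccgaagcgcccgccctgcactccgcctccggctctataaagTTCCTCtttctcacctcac
Bcl6, chr16:23981284-23981533, minus strand: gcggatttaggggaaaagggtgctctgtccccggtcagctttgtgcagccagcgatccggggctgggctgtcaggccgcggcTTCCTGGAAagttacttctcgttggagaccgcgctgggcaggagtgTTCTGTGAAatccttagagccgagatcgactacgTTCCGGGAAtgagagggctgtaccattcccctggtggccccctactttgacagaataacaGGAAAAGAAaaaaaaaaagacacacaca

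The Irf8 window shown held 2 GAS-type matches, TTCTCGGAA from position -171 to -163 and TTCAGAGAA from -153 to -145, counted from the start. The other Irf8 window held no GAS-type match and 1 E-box match, CAGGTG from -205 to -200. The Irf4 window held 1 PU.1-type match on the opposite strand, TTCCTC from -19 to -14. The Bcl6 window shown held 3 GAS-type matches and 1 ETS-IRF composite match, GGAAAAGAA from -28 to -20. Over the 11 member windows, 5 held a GAS-type match (1 Irf8 window, Batf3, Bcl11a and both Bcl6 windows), against 7.02% of the 32851 windows in the table. The PU.1-type motif was in 4 member windows against 23.3% of all windows, the E-box in 2 against 17.2%, the ETS-IRF composite in 2 against 6.99%, and the IRF and AP-1 motifs in 0 against 7.13% and 4.46%. Matches of different motifs did not overlap in the member windows, although GAGGAA can overlap GGAANNGAA. A match is a description of letters, and these arrays did not measure binding.

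**Figure D2:**
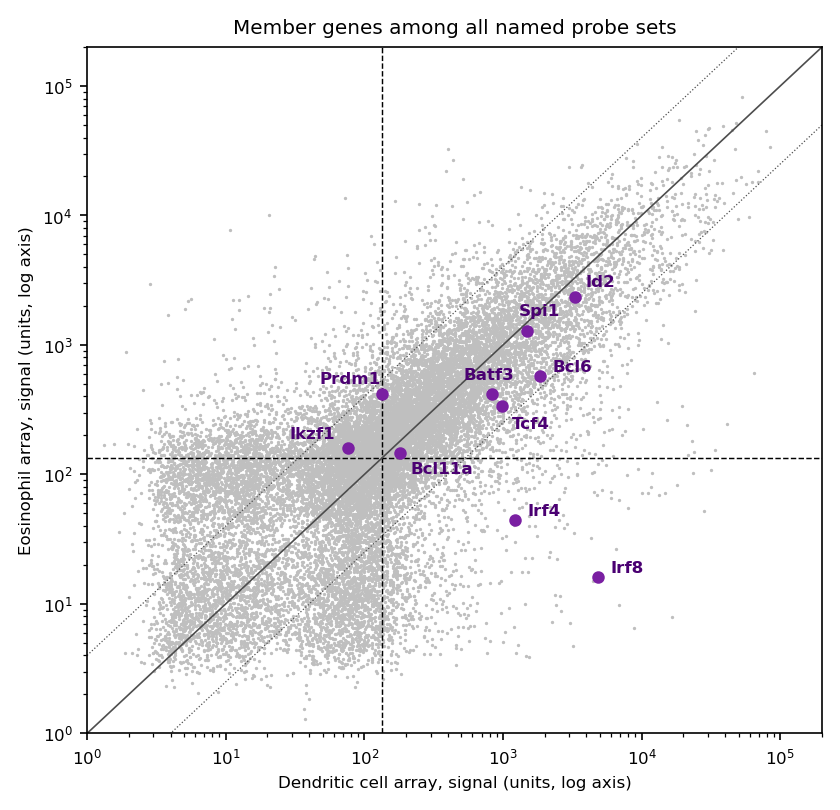
Signal on the dendritic cell array (x) against the eosinophil array (y), both in units on log axes, for all 20380 probe sets with 1 gene (grey) and for the probe set standing for each member (purple). Dashed lines are the floor, the solid line is equality and dotted lines are 4-fold; Irf8 at 4835 and 16.1 units and Irf4 at 1213 and 44.4 units lie beyond the lower dotted line.

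Spi1 and Id2 were bright on both arrays. Spi1, encoding PU.1, gave 1493 units in dendritic cells and 1283 in eosinophils, 1.16-fold apart (-0.22 on the log2 scale). Id2, an inhibitor that binds E proteins and keeps them from DNA, gave 3312 units and 2339 units with 1422537_a_at, and 3401 units and 2030 units with 1435176_a_at. The third Id2 probe set, 1453596_at, gave 240 units and 259 units, slightly brighter in eosinophils. The Id2 differences of -0.50, -0.74 and 0.11 lay near or within the spread between probe sets. Spi1 was thus above background on both arrays, whereas Irf4 and Irf8, which bind DNA with PU.1, were above the floor on the dendritic cell array only.

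Batf3 and Bcl6 were intermediate. Batf3, a leucine zipper factor that pairs with JUN proteins, gave 839 units in dendritic cells and 417 in eosinophils with its single probe set. This 2.01-fold gap is just past the 2-fold mark and fell to -0.92 on the log2 scale, under 2-fold, when the arrays were centred on housekeeping genes. Bcl6, a zinc finger repressor, gave 1864 units and 575 units with 1421818_at, 3.24-fold apart. Its other probe set, 1450381_a_at, was below the floor on both arrays with 86.9 units and 97.5 units, although the annotation names the same sequence record for both. Bcl6 and Batf3 were thus above background on both arrays, unlike Irf8.

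Factors of the pDC program gave less uniform values. Tcf4 had 6 probe sets. The brightest, 1416723_at, gave 980 units in dendritic cells and 335 in eosinophils, 2.93-fold apart. The next 3 gave 320 against 114 units (at least 2.38-fold), 285 against 393 units (1.38-fold brighter in eosinophils) and 262 against 167 units (1.57-fold). The last 2, at 171 against 3.50 units and 24.5 against 13.1 units, were in the background range or below the floor. Probe sets of Tcf4 therefore disagreed in direction, from -1.55 to 0.47 on the log2 scale, and their mean of -0.66 is under 2-fold. Bcl11a, a zinc finger factor also used by B cells, gave 181 units and 147 units with its brighter probe set and 87.2 units and 9.42 units with the other. Ikzf1, the Ikaros zinc finger factor of lymphoid and pDC development, gave 76.2 units in dendritic cells and 161 in eosinophils. Every Bcl11a and Ikzf1 signal was under 192 units, so neither factor was distinguishable from background on either array.

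Most pDC markers were below the floor. Of 10 on the array, 3 were above the floor, and Spib, Ly6d, Pacsin1, Klk1, Cox6a2, Lag3 and Lair1 were below it on both. The summed signal of all 10, those below the floor included, was 2598 units in dendritic cells and 2425 in eosinophils. Ccr9, a gut homing receptor, was 7.18-fold apart toward dendritic cells (1578 units against 220 units) and Atp1b1, a sodium pump subunit, 10.7-fold brighter in eosinophils (1744 units against 163 units in the background range), each with another probe set under 2-fold apart (-0.37 and 0.30 on the log2 scale). The interferon-induced Bst2 gave 253 units in dendritic cells and 7.67 in eosinophils, at least 1.88-fold.

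Prdm1 was the only member at least 2-fold brighter in eosinophils. Its single probe set gave 417 units there and 134 units in dendritic cells, just under the floor, at least 3.09-fold apart. Centring on the spike controls took this difference from 1.63 to 0.59 on the log2 scale, under 2-fold. Bcl6, which Prdm1 represses in B cells, lay the other way. Xbp1, which acts with Prdm1 in secretory cells and also in eosinophil development, gave 2787 units in eosinophils against 833 in dendritic cells (3.35-fold). Spike centring took it from 1.74 to 0.70 on the log2 scale, under 2-fold, and its probe sets ranged from 0.47 to 2.05.

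**Figure D3:**
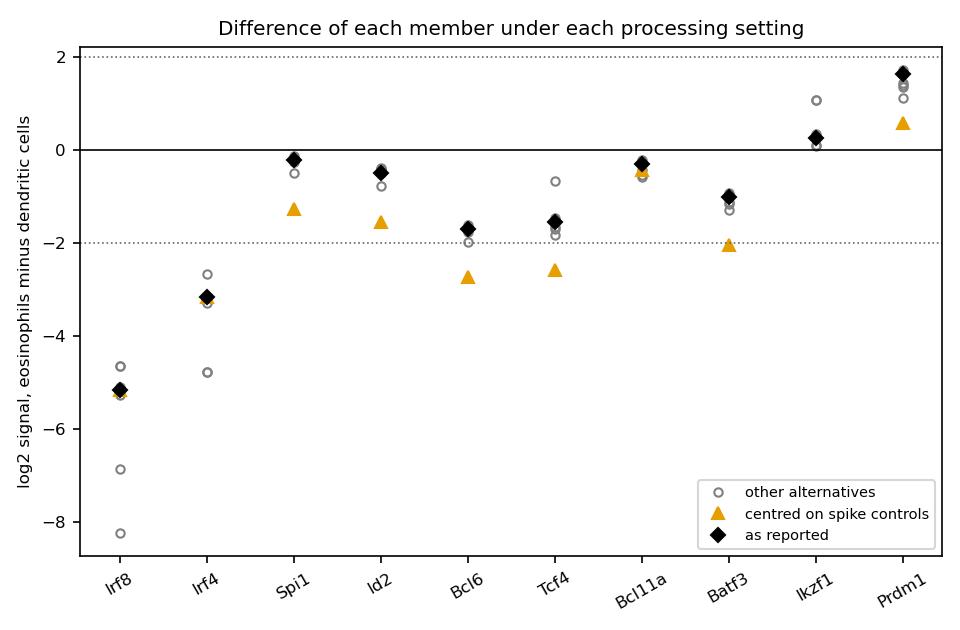
Difference in log2 signal, eosinophils minus dendritic cells, for each member (x) as reported (diamonds), after centring on spike controls (triangles) and under the other scalings, floors and probe set rules (open circles); dotted lines mark 4-fold. No measured difference changed direction, while Ikzf1 was not above the floor with median or spike centring, and Bcl6, Tcf4 and Batf3 crossed 4-fold with spike centring.

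How many members passed 4-fold depended on the scaling. As deposited, the arrays had nearly the same trimmed mean (500.3 and 500.2 units), and 428 genes passed 4-fold in each direction. The 18 hybridisation spike probe sets were 2.06-fold brighter on the eosinophil array, and centring on them lowered all differences by 1.04 before the floor, moved the median of all measured genes from 0.156 to -0.424 and changed the split to 994 genes brighter in dendritic cells and 140 in eosinophils. On that scale 5 members passed 4-fold toward dendritic cells: Irf8, Irf4, Bcl6 (-2.74), Tcf4 (-2.59) and Batf3 (-2.05), while Spi1 stood at -1.26 and Id2 at -1.54. Centring on the array medians gave a split of 547 to 304. Over all probe sets the dendritic cell array had a median of 122.0 units, the other 148.1 units. The ratio of 3′ to 5′ control signal was 6.58 and 9.81 for Gapdh and 9.0 and 6.38 for Actb in dendritic cells and eosinophils, and its part in the disagreement of probe sets was not tested.

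By probe set, 17 of the 21 member probe sets lay above the floor on 1 array or both. Of these, 3 passed 4-fold toward dendritic cells and 0 toward eosinophils, against 5.12% and 4.76% of the 12510 measured probe sets. All 3 belong to Irf8 and Irf4. The 4 below the floor on both arrays were 1 each of Irf4, Bcl6, Tcf4 and Bcl11a.

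Among the other interferon regulatory factors only Irf2 was more than 4-fold apart. Of 6 on the array, all above the floor, 0 passed 4-fold toward dendritic cells and 1 toward eosinophils, and the median was -0.53. Irf2, which competes with Irf1 for DNA, stood at 1946 units in eosinophils and 338 in dendritic cells (5.76-fold, and 1.49 on the log2 scale with spike centring). Irf7, the driver of type I interferon output, gave 418 units in dendritic cells and 172 in eosinophils (2.43-fold, the latter in the background range). Irf1 (2064 and 1451 units), Irf5 (1542 and 830 units) and Irf9 (851 and 580 units) were less than 2-fold apart, each brighter in dendritic cells with the probe set standing for the gene. The other Irf5 probe set stood at 0.33 (log2), toward eosinophils. Irf3 gave 344 units in dendritic cells and 634 in eosinophils, a direction that turned with spike centring (-0.16).

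Partners of Batf3 and Spi1 were mixed. Of 6 BATF and JUN genes, 2 passed 4-fold toward dendritic cells and 0 toward eosinophils: Junb (829 units against 163 units in the background range, 5.09-fold) and Jun (2346 units against 535 units, 4.38-fold), both subunits of AP-1. Jdp2, a repressor of that group, gave 8298 units in dendritic cells and 3226 in eosinophils (2.57-fold), whereas Jund gave 7718 units in dendritic cells and 14467 in eosinophils (1.87-fold, turning to -0.13 with spike centring). With spike centring the counts became 3 and 0, as Jdp2 reached -2.40 on the log2 scale. Batf, related to Batf3, gave 252 units in eosinophils against 20.6 in dendritic cells, at least 1.87-fold. Of 11 measured ETS factors none was at least 4-fold apart, and with spike centring 1 was, Etv3 at -2.38 on the log2 scale toward dendritic cells. The median was 0.913 toward eosinophils, turning to -0.13 with spike centring. Etv6, a repressor needed in blood formation, gave 478 units in dendritic cells and 64.7 in eosinophils (at least 3.55-fold), and Etv3 gave 7747 units and 3061 units (2.53-fold). Probe sets of Etv3 ranged from -2.28 to -0.22 on the log2 scale. Elf2 (542 units against 139 units) and Elk3 (932 units against 257 units) were brighter in eosinophils by 3.91-fold and 3.62-fold, the former against a signal in the background range. Their lowest probe sets stood at 0.9 and 0.93, and spike centring took these genes to 0.93 and 0.82 (log2). Ets1 (696 units against 302 units) and Elf4 (573 units against 260 units) were brighter in eosinophils by 2.31-fold and 2.20-fold, but only 0.17 and 0.1 on the log2 scale with spike centring. Elk4, Gabpa, Elf1, Fli1 and Ets2 were less than 2-fold apart. Spib, the PU.1 relative of pDCs and B cells, was below the floor on both arrays.

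The E protein and Id list had 5 measured genes, and none was at least 4-fold apart. Tcf12, an E protein like Tcf4, gave 632 units in eosinophils against 285 in dendritic cells (2.21-fold), opposite to the brightest Tcf4 probe set. The other Tcf12 probe set stood at 0.21, and spike centring took the gene from 1.15 to 0.11 on the log2 scale. Zeb2, a repressor of Id2 in dendritic cell progenitors, gave 308 units in eosinophils against 146 in dendritic cells (2.11-fold, the latter in the background range), which became 0.04 on the log2 scale with spike centring. Id1 and Id3 were below the floor on both arrays, so Id2 was the one Id gene above 192 units on either. Among Ikaros relatives, Ikzf4, known from regulatory T cells, gave 1702 units in eosinophils against 110 in dendritic cells, at least 12.6-fold (2.62 on the log2 scale with spike centring), and Ikzf2 reached 164 units in eosinophils, in the background range.

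Among 16 other measured factors and receptors of dendritic cell development, 5 passed 4-fold toward dendritic cells and 2 toward eosinophils, with a median of -0.82. The NF-kappaB subunit Rel led at 1640 units against 135 units (12.1-fold, with the eosinophil signal in the background range). The cytokine receptor Flt3, which drives dendritic cell development, gave 657 units and 113 units (at least 4.88-fold). Nfil3, a factor upstream of cDC1 development, gave 4311 units and 923 units (4.67-fold). Klf4, needed by part of the cDC2, gave 2264 units and 500 units (4.53-fold), and Mycl gave 599 units and 88.6 units (at least 4.45-fold). The NF-kappaB subunit Relb gave 509 units and 134 units (at least 3.78-fold), and the cytokine signal factors Stat3 (2363 against 1062 units) and Stat5a (3096 against 1471 units) were 2.22-fold and 2.10-fold apart in the same direction. Zbtb46, a zinc finger factor that marks conventional dendritic cells, was 1.48-fold apart with 592 units in dendritic cells and 400 in eosinophils. Notch2, the receptor needed by intestinal cDC2, gave 16504 units in dendritic cells and 28110 in eosinophils (1.70-fold), a direction that turned with spike centring. Stat5b gave 551 units in eosinophils against 70.7 in dendritic cells (at least 4.09-fold), and Runx1 1415 units and 241 units (5.86-fold), although probe sets of Runx1 ranged from -2.76 to 2.55 on the log2 scale. With spike centring the counts became 7 and 0.

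Over all 6 lists of related factors, each gene counted once and the members left out, 46 of 53 genes were measured. Of these, 7 passed 4-fold toward dendritic cells and 4 toward eosinophils, with a median of 0.263. With spike centring 11 passed toward dendritic cells and 1 toward eosinophils. The list of eosinophil and granulocyte factors had 8 measured genes, of which 3 passed 4-fold toward eosinophils and 0 the other way. These were Gata1 (1979 units against 60.8 units, at least 14.7-fold), Runx1, and Cebpb (2584 units against 146 units, 17.7-fold, with the dendritic cell signal in the background range). At 2-fold, 5 genes of this list leaned to eosinophils and 2 to dendritic cells, against 19.0% and 15.5% of measured genes. Toward dendritic cells these were Cebpa (381 units against 163 units in the background range, 2.33-fold) and Trib1 (988 units against 468 units, 2.11-fold). With spike centring 2 passed 4-fold toward eosinophils, since Runx1 became 1.51 on the log2 scale, and 1 toward dendritic cells, Trib1 at -2.12.

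**Figure D4:**
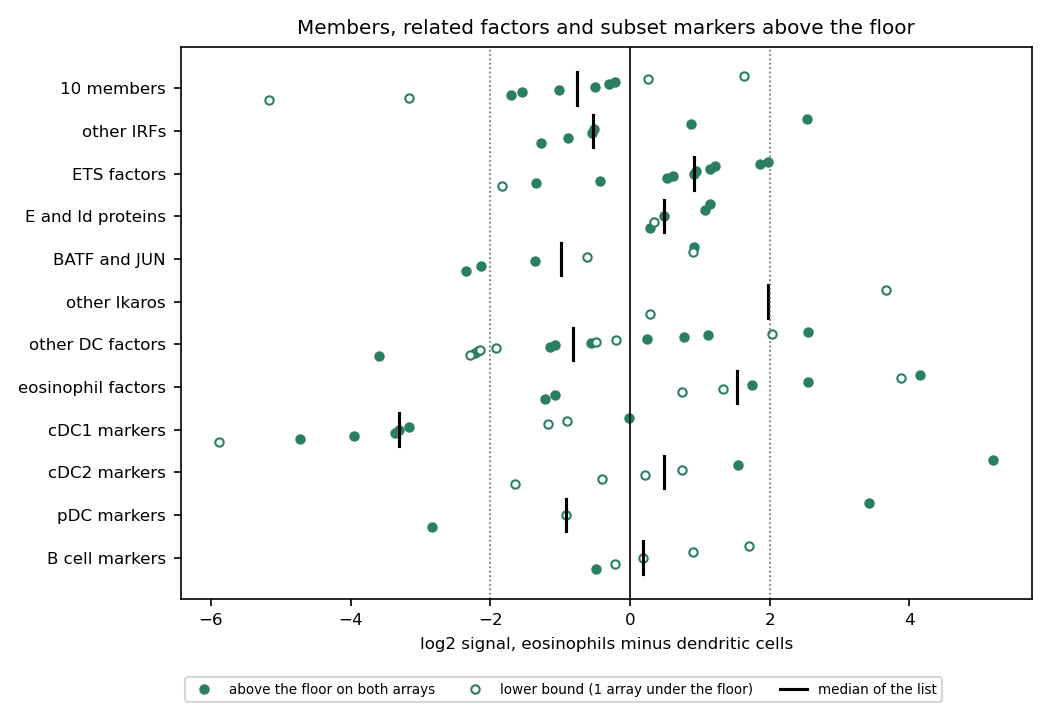
Difference in log2 signal, eosinophils minus dendritic cells, for each gene above the floor on at least 1 array, by gene list (rows); open points are lower bounds, bars are list medians and dotted lines mark 4-fold. Irf8 lies at -5.17 and Irf4 at -3.17, both lower bounds, and the cDC1 markers have a median of -3.30.

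Markers of the cell types that these factors support differed by subset. Of 9 cDC1 markers, all measured, 6 passed 4-fold toward dendritic cells and 0 toward eosinophils, and the median log2 difference was -3.30. They were the integrin Itgae, Cd8a (3732 units against 141 units), the scavenger receptor Cd36 (3174 units against 205 units), the adhesion molecule Cadm1 (4950 units against 481 units), the double-stranded RNA sensor Tlr3 (1776 units against 180 units) and the hydrolase Naaa (3031 units against 336 units). Cd36, Cadm1 and Naaa were 15.5-fold, 10.3-fold and 9.02-fold apart. The eosinophil signals of Cd8a and Tlr3 were in the background range, so their folds of 26.5 and 9.87 are not exact, and another probe set of Tlr3 stood at 0.85 the other way. Itgae was also on the list of dendritic cell markers, so its gap does not single out cDC1. The T cell gene Cd3e gave 557 units in dendritic cells and 336 in eosinophils, while Cd3d and Cd3g were below the floor on both arrays. The part of T cell RNA in the Cd8a signal was not tested. The chemokine receptor Xcr1, a defining cDC1 gene, gave 251 units in dendritic cells and 14.0 in eosinophils, at least 1.86-fold. Of 6 measured cDC2 markers 0 passed 4-fold toward dendritic cells and 1 toward eosinophils, the inhibitory receptor Sirpa (19018 units against 518 units, 36.7-fold), whose probe sets reach down to 0.88 (log2). Cd24a, on this list though not particular to cDC2, also leaned to eosinophils (54986 units against 18722 units, 2.94-fold). S100a4 leaned to dendritic cells (420 units against 6.43 units, at least 3.12-fold), as did Ltb (-0.40 on the log2 scale). Itgam, which encodes the CD11b of the eosinophil gate, gave 227 units in eosinophils and 87.1 in dendritic cells, at least 1.68-fold. The cDC2 genes Cd209a, Mgl2 and Clec10a were below the floor on both arrays. A gap against eosinophils cannot show how many cDC2 the dendritic cell sample held, since a marker can be bright in eosinophils too. The gates follow CD11c and MHC class II, so the dendritic cell sample can hold several subsets, and 1 array cannot say which cells carry a factor.

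Genes described in the literature as regulated by Irf8 or PU.1 lay in both directions. Of 15 measured genes 4 passed 4-fold toward dendritic cells and 2 toward eosinophils, with a median of -0.36. The cystatin Cst3 (49229 units against 9400 units, 5.24-fold), the costimulatory receptor Cd40 (693 units against 50.5 units, at least 5.15-fold), the cytokine Il1b (9003 units against 2236 units, 4.03-fold) and Flt3 were brighter in dendritic cells. The second Cd40 probe set stood at -0.68 (log2). The kinase Btk (3567 units against 553 units, 6.45-fold) and the lipopolysaccharide receptor Tlr4 (1712 units against 3.85 units, at least 12.7-fold) were brighter in eosinophils. With spike centring the counts became 5 and 1. The list was drawn from general knowledge, and regulation was not measured here.

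The genes whose signals lay nearest to those of Irf8 on both arrays, by Euclidean distance of floored log2 signals, were the chemokine Ccl22 (4781 units in dendritic cells and 69.4 in eosinophils), the homeobox factor Hhex (5138 and 128 units) and the beta-glucan receptor Clec7a (5176 and 76.0 units). For Irf4 they were Gpr85 (1213 and 91.7 units), Arap2 (1240 and 87.8 units) and Stom (1251 and 134 units). Within 1 log2 unit lay 52 genes for Irf8 and 172 for Irf4. With 2 arrays and the eosinophil side at the floor, this nearness rests on the dendritic cell signal alone.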

How the data were processed

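RNA of 1 dendritic cell sample and 1 eosinophil sample was measured on 3′ expression arrays. Per the labels' protocols, total RNA was extracted with Trizol and converted to fragmented, biotin-labelled cDNA. The deposited values are linear signal intensities. The submitters' processing notes name MAS5, version 5.0. Detection calls and scanner files were not used here. The number of arrays limits the precision.

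Of 22690 probe sets, 64 were controls and 20380 others had 1 gene in the platform annotation. Symbols were updated through a RefSeq table of GRCm38.p6. No build is named for the values. Signals were raised to the floor, put on the log2 scale and subtracted with Python 3.11.15. A gene above the floor on 1 array or more counts as measured, which held for 7994 of 12393 genes. The procedure was run on simulated arrays built from genes above the floor on both arrays. Without added noise, recovery of the changes put in was fixed in advance, so this checked the arithmetic only. It does not bear on the values of Irf8, Irf4 or any other member. Members, lists and motifs were chosen with earlier results of these data known. Named genes were all members, any of the related factors, up to 4 genes with the largest difference of each other list, the genes defining a cell type, and the 3 genes nearest to each member at least 4-fold apart. Cebpa and Trib1 were named beyond this to show the other direction in the eosinophil factor list. Alternatives were other scalings (median, quantile, loess with span 0.3, housekeeping genes, spike controls), floors, probe set rules and thresholds of 2-fold and 10-fold.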

Additional observations from a re-analysis of the deposited data

How the results depend on the processing

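No paired analysis was possible because each population had 1 array. Over 96 values of single members under the alternatives, 0 changed sign, 83 moved by less than the probe set SD and 13 by more, 6 of them with spike centring. Part of the 83 could not move. A member above every floor is unchanged by the floors, and a member with 1 probe set by the probe set rules. Irf8 and Irf4, with the eosinophil side at the floor, kept their values under median, housekeeping and spike centring. The tally is thus no measure of stability. The median of the members became -2.05 with spike centring, over members still above the floor. The count of member genes at least 4-fold brighter in dendritic cells was 5 with spike centring, 5 at 2-fold and 1 at 10-fold, and that of member probe sets was 6 with spike centring, 6 with no floor and 7 at 2-fold. Toward eosinophils, 1 member gene and 1 member probe set passed at 2-fold, and the 2-fold count of genes was 0 with spike centring and 2 with the floor at the 25th percentile or none. Over all genes, counts toward dendritic cells and eosinophils were 994 and 140 with spike centring, 665 and 844 with the lower floor, 1460 and 1901 with no floor, 1241 and 1519 at 2-fold, and 124 and 105 at 10-fold. Of the 7994 measured genes, 15.5% passed 2-fold toward dendritic cells, 19.0% toward eosinophils, and 1.55% passed 10-fold toward dendritic cells. Shares over all probe sets were not computed for the other settings. As counts over all genes also moved, from 428 in each direction, the member counts are no result about the members. The cause of these moves was not tested beyond how each alternative is built. Ikzf1 gave no value with median or spike centring. Related factors passing 4-fold toward dendritic cells and eosinophils were 11 and 1 with spike centring. With the floor at 192 units Bcl11a and Ikzf1 were not measured, and the differences became -4.65 for Irf8 and -2.66 for Irf4 on the log2 scale. Signals near background limit what can be said of Bcl11a, Ikzf1 and the dim Tcf4 probe sets. A comparison of the Irf8 and Irf4 proteins was planned and not run.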

Other observations

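Corepressors that Bcl6, Bcl11a, Prdm1 and Ikaros proteins recruit were, like most measured genes, mostly less than 2-fold apart. Of 11 measured, 0 were at least 4-fold apart in either direction, against 5.35% of measured genes in each. At 2-fold, 2 were brighter in dendritic cells and 1 in eosinophils, against 15.5% and 19.0%, and 8 were under 2-fold apart. So few genes, near these shares, give no result about the corepressors. The median was -0.21 on the log2 scale, and with spike centring 2 passed 4-fold toward dendritic cells. Furthest apart were the scaffold Sin3a (726 units in eosinophils against 222, 3.26-fold), the histone-binding Rbbp7 (1384 against 4307 units, 3.11-fold), the corepressor Tle3 (2397 against 5427 units, 2.26-fold) and the deacetylase Hdac2 (527 against 289 units, 1.82-fold, turning to -0.17 with spike centring).

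Genes described as repressed by Bcl6 or Prdm1 had 8 measured members, of which 2 passed 4-fold toward eosinophils and 0 the other way, with a median of 0.46 that turned to -0.06 with spike centring, where 1 passed, since Ccnd2 became 1.04. The 2 on the deposited scale were the chemokine Ccl3 (7353 units against 293 units, 25.1-fold) and the cyclin Ccnd2 (5153 units against 1220 units, 4.22-fold), with probe sets between 0.29 and 2.26 (log2). The interferon-induced chemokine Cxcl10 was brighter in dendritic cells (357 against 5.39 units), at least 2.65-fold.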
